A study of Mus musculus with 48 samples.

Results

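OKMS reprogramming yields *Nanog*-GFP- cells that either carry E-cadherin (E-CAD, the product of *Cdh1*) on their surface or lack it. E-CAD+ and E-CAD- cells from the 2NG- gate, which holds cells with low CD44, low ICAM1, and no *Nanog*-GFP, were compared here. Members are the 3 libraries that the labels give for each population, 6 of the 48 libraries of the series. Both populations descend from the same kind of mouse embryonic fibroblasts (MEFs). These MEFs were derived from chimeric embryos made with TNG OKMS embryonic stem cells (ESCs), which carry GFP in the *Nanog* locus and, in an intron of *Sp3*, the OKMS cassette and the reverse tetracycline transactivator under a CAG promoter. The cassette encodes Oct4, Klf4, Myc, and Sox2 in this order on 1 doxycycline-inducible transcript. The MEFs were diluted with wild-type MEFs, and both populations received doxycycline and vitamin C. The design gives day 10 for the sort, whereas the culture protocol gives 10 or 15 days. For comparison, the report uses OKMS MEFs and OKMS induced pluripotent stem cells kept without doxycycline (iPSCs), with 2 libraries each, TNG OKMS ESCs (2 libraries), and OKMS cells of the 3NG- gate (low CD44, high ICAM1, no *Nanog*-GFP), with 3 E-CAD+ and 3 E-CAD- libraries. The 3NG- libraries are not shared with the 2NG- comparison, nor are the MEF, iPSC, and ESC libraries.

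E-cadherin joins neighboring epithelial cells at adherens junctions, where catenins link its tail to actin. Fibroblasts that are reprogrammed pass through a mesenchymal-to-epithelial transition, in which junction proteins, keratins, and epithelial splicing factors appear and matrix and mesenchymal genes decline. Repressors of the ZEB and SNAIL families hold *Cdh1* and other epithelial genes down in mesenchymal cells by binding E-box sequences in their promoters. The sort uses the surface protein, so that *Cdh1* RNA serves as a check of the labels and the remaining transcripts are what the comparison describes.

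E-CAD+ libraries held 5867291, 3102135, and 14174725 reads on transcripts (replicates 1, 2, and 3), and E-CAD- libraries held 5270817, 2912757, and 6133070. Levels are given as CPM, the reads of a transcript scaled to a library of 1e+06 transcript reads, always in the order of replicates 1, 2, and 3. A transcript listed at 0 could hold up to 3 reads, which is 0.212 to 0.967 CPM in E-CAD+ libraries and 0.489 to 1.03 CPM in E-CAD- libraries, and this limit covers counting error only. Mitochondrial transcripts took 7.07% to 10.9% of the reads in E-CAD+ and 6.53% to 13.6% in E-CAD- libraries. Replicate 3 correlated less with the others than they did with each other in both populations. Across genes, Pearson's *r* of log2 CPM between replicates 1 and 2 was 0.939 in E-CAD+ and 0.927 in E-CAD- cells, between replicates 1 and 3 it was 0.914 and 0.915, and between replicates 2 and 3 it was 0.889 and 0.893. Counts below are therefore given with and without both replicate 3 libraries. No pair of libraries agreed within sampling noise. Unless stated otherwise, p-values of genes come from a fit to all 48 libraries. They measure the spread within conditions over the whole series, not only among these 6 libraries. The labels do not say whether replicates came from separate cultures, so that this spread may be technical.

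*Cdh1* was at 159, 182, and 152 CPM in E-CAD+ cells and at 20.5, 51.5, and 4.24 CPM in E-CAD- cells. The libraries matched their labels, although *Cdh1* reads remained in each E-CAD- library and were fewest in replicate 3. Of the other sorting markers, *Cd44* was at 36.8, 75.8, and 12.5 CPM in E-CAD+ and at 59.8, 100, and 46.1 CPM in E-CAD- cells, with overlapping groups. *Icam1* had at most 0.489 CPM in any of the 6 libraries. *Nanog*, whose GFP reporter was off in both gates, was nonetheless higher in E-CAD+ cells, with 36.0, 24.8, and 52.8 CPM against 7.59, 15.1, and 15.7 CPM (log2 fold change 1.77, standard error (SE) 0.49, edgeR FDR = 0.0385). This call did not hold when E-CAD+ replicate 1 or 3 or any E-CAD- library was left out, nor without replicate 3 of both populations (FDR = 0.189).

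Of 15630 genes tested with edgeR's quasi-likelihood test, 372 (2.38%) were called at a false discovery rate (FDR) threshold of 0.05. In E-CAD+ cells 264 genes were higher (1.69%) and 108 were lower (0.691%), so that 71.0% of the calls were higher. The median log2 fold change, E-CAD+ minus E-CAD- throughout, was 2.27 among the higher and -2.75 among the lower genes. Without replicate 3, 227 genes were called, 121 higher and 106 lower (53.3% higher), and 154 of them were among the 372. The split was also closer to even with the 6 libraries alone (88 higher and 88 lower, or 273 and 240 with the replicate number as a block), with the 12 libraries of both gates alone (120 and 115), without E-CAD+ replicate 3 (228 and 210), with DESeq2 (337 and 237), and with no filter on low counts (483 and 360). It moved further from even without E-CAD+ replicate 1 (199 and 59, 77.1% higher) and without E-CAD+ replicate 2 (201 and 52, 79.4% higher). Leaving out E-CAD- replicate 3 reduced the calls to 186. As a background for gene lists, 7714 of all genes tested had a positive fold change, and their median was 0. The 3 values of a population lay wholly above those of the other in 2668 genes (17.1%), of which 901 were higher and 1767 lower in E-CAD+ cells. Overlap was judged on CPM, whereas calls and fold changes also used TMM normalization factors. These were 0.915 to 1.04 in E-CAD+ and 1.01 to 1.13 in E-CAD- libraries, so that the 2 splits are not on the same scale. All 6 samples are bulk RNA, so that fewer cells of a type and less RNA per cell cannot be told apart.

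Epithelial junction genes were higher in E-CAD+ cells as a group. All 43 tested genes of this list had a positive fold change, with a median of 2.03, and 18 were called, all of them higher. In 27 of the 43 the populations did not overlap. Without replicate 3, 12 genes were called, with 1 library left out 11 to 20, and with the replicate block 19. Among adherens junction genes 4 of 6 were called. *Epcam*, an epithelial adhesion molecule, was at 118, 126, and 86.5 CPM in E-CAD+ and at 18.6, 24.7, and 5.54 CPM in E-CAD- cells (log2 fold change 2.90, SE 0.44, edgeR FDR = 5.26e-05). Each E-CAD+ library was well above each E-CAD- library, and OKMS MEFs averaged 0.286 CPM (n = 2). *Cdh3*, which encodes P-cadherin, was at 13.5, 14.5, and 11.9 against 2.09, 2.75, and 1.79 CPM. *Ctnna1*, which encodes the alpha-catenin that ties cadherins to actin, had the smallest change of the 4 called, from 140, 149, and 130 CPM in E-CAD- to 222, 220, and 198 CPM in E-CAD+ cells (log2 fold change 0.75). The nectin gene *Pvrl2* was at 31.0, 26.1, and 34.4 against 12.1, 4.12, and 14.7 CPM.

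Tight junctions seal the space between epithelial cells, and 5 of 14 such genes were called. *Cldn6*, a claudin of early embryonic epithelia, was at 217, 185, and 287 CPM in E-CAD+ and at 12.1, 20.3, and 15.0 CPM in E-CAD- cells (log2 fold change 4.04, SE 0.60, edgeR FDR = 4.81e-05). *Cldn4* was at 123, 92.8, and 39.6 against 12.5, 10.6, and 2.45 CPM (log2 fold change 3.44, SE 0.55). In both claudin genes the groups were far apart, and replicate 3 was the lowest library for *Cldn4* in either population. *Cldn7* (89.5, 82.5, and 48.4 against 15.0, 23.7, and 3.91 CPM) and the junctional adhesion molecule gene *F11r* (129, 138, and 109 against 39.1, 52.2, and 8.80 CPM) were also called. The scaffold gene *Tjp1* was not, with 21.5, 27.1, and 23.7 against 21.1, 26.4, and 19.9 CPM. Of 9 desmosome genes, *Dsp* (136, 178, and 41.4 against 26.8, 44.6, and 22.8 CPM, with overlapping groups) and *Dsg2* (31.9, 23.2, and 21.2 against 1.33, 5.84, and 2.45 CPM) were called.

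Genes of apical polarity and sorting were among the called genes as well. *Crb3*, part of the Crumbs polarity complex, was at 38.9, 46.1, and 34.1 CPM in E-CAD+ and at 3.42, 9.96, and 3.75 CPM in E-CAD- cells. *Rab25*, an epithelial recycling GTPase, was at 97.7, 121, and 67.1 against 9.49, 16.5, and 1.30 CPM, and *Ap1m2*, the epithelial subunit of a basolateral sorting adaptor, was at 136, 155, and 70.5 against 18.2, 3.78, and 6.36 CPM (log2 fold change 3.72, SE 0.57, edgeR FDR = 7.26e-05). Together with the polarity gene *Llgl2* (6.65, 5.48, and 4.30 against 1.52, 0.687, and 0.326 CPM), these made 4 of 9. The membrane protease *St14* and its partners act on the epithelial surface, and 3 of 5 genes of this kind were called. *Spint2*, an inhibitor of these proteases, was at 152, 157, and 140 against 54.3, 88.2, and 21.2 CPM, and *Prss8* was at 37.2, 23.5, and 41.1 against 3.79, 6.18, and 0.978 CPM. *St14* itself was called with overlapping groups, at 68.5, 70.6, and 18.8 against 12.7, 22.0, and 1.63 CPM. The calls of 11 of the 18 junction genes (*Epcam*, *Cdh3*, *Pvrl2*, *Cldn4*, *Cldn6*, *F11r*, *Dsg2*, *Crb3*, *Rab25*, *Ap1m2*, and *Spint2*) held without each library in turn and without replicate 3. Among these 7 fits *Cldn7* was called only without E-CAD+ replicate 3 (highest edgeR FDR elsewhere 0.238). *Ctnna1*, *Dsp*, *Llgl2*, *St14*, and *Prss8* lost the call in 2 to 5 of the fits, with highest FDRs of 0.115 to 0.188, and each of them lost it without E-CAD- replicate 3.

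Promoters of the called epithelial genes are shown because ZEB and SNAIL factors bind the E-box CAGGTG, and the ZEB genes differed between these populations. RefSeq windows on GRCm38.p6, from 250 bases before to 50 after the start site, were used for 12 of the 23 genes sought (*Cdh1* and the called junction genes and epithelial regulators), in 14 windows. Genes for which no window was used included *Cdh1*, *Cdh3*, *Ctnna1*, *Dsg2*, *Llgl2*, *St14*, *Prss8*, *Esrp1*, *Esrp2*, and *Grhl2*. The search for these genes set a chromosome aside, which the shares over all windows did not, so that a gene listed here may have had a window. For 6 of the 12 genes, the 160 bases that end at the start site are printed 5′ to 3′ on the strand of the gene. Capitals mark CAGGTG or CACCTG, its reverse complement, and CCACCC, a motif of KLF factors.
Epcam promoter, chr17:87635819-87635978, plus strand: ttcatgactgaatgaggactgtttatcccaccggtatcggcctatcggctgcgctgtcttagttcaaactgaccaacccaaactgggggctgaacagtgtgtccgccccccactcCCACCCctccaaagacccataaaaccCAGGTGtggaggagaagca
Cldn6 promoter, chr17:23679205-23679364, plus strand: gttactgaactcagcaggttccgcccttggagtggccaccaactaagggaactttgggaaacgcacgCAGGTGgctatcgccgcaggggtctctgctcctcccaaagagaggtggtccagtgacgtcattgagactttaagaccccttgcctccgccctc
Cldn7 promoter, chr11:69965261-69965420, plus strand: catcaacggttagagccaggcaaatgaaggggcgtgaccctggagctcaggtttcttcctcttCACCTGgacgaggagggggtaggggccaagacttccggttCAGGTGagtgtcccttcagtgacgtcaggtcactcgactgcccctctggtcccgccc
Rab25 promoter, chr3:88548280-88548439, minus strand: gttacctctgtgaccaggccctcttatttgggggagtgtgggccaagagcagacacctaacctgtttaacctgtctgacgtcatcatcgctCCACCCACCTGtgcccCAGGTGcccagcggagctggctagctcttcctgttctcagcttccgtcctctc
Ap1m2 promoter, chr9:21312334-21312493, minus strand: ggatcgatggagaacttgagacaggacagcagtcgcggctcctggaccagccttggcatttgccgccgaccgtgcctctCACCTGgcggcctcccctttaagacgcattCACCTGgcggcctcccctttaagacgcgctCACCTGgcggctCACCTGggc
Spint2 promoter, chr7:29281978-29282137, minus strand: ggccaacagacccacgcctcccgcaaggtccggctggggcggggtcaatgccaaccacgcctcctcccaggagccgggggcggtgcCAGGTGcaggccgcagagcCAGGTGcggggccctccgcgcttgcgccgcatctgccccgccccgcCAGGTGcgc
In the *Epcam* window both motifs lie near the start site, *Ap1m2* holds 4 E-boxes and *Spint2* holds 3, and in *Rab25* the KLF motif overlaps an E-box. Searched on both strands, CAGGTG occurred in 13 of the 14 windows (92.9%) and in all 12 genes, against 6640 of 32851 promoter windows (20.2%). The window without CAGGTG was a further *Cldn7* window, which is not printed. Among other genes called higher in E-CAD+ cells it occurred in 63 of the 162 genes with a window (38.9%), among genes called lower in 14 of 69 (20.3%), and among all genes tested in 2335 of 10799 (21.6%). CCACCC was found in 7 of the 14 windows (50%), against 31.5% of all windows, 42.3% of all genes tested, 48.8% of the other genes called higher, and 52.2% of those called lower. The grainyhead motif AACCGGTT was in none of the 14 and in 0.146% of all windows. A match describes these letters, not a bound site or a cause.

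Epithelial regulators showed the same direction. Of 14 genes tested 4 were called, all higher, and the median was 2.46. Both epithelial splicing regulators were among them. *Esrp1* was at 42.6, 48, and 32.5 CPM in E-CAD+ and at 8.16, 3.43, and 0.815 CPM in E-CAD- cells (log2 fold change 3.40, SE 0.67, edgeR FDR = 0.00217), and *Esrp2* was at 12.8, 12.6, and 3.03 against 0.759, 0, and 0.652 CPM. Of 12 epithelial transcription factors, *Grhl2*, which activates *Cdh1* and claudin genes, was at 20.8, 21.9, and 10.0 against 0.569, 2.4, and 0 CPM (log2 fold change 4.52, SE 0.87), and *Elf3* was at 46.9, 44.5, and 47.1 against 12.9, 9.27, and 1.63 CPM. None of the 4 genes overlapped between populations. Without replicate 3, *Esrp1*, *Esrp2*, and *Grhl2* were called (3 genes). *Esrp1* and *Grhl2* held their calls without each library in turn, whereas *Esrp2* kept its call only without E-CAD+ replicate 3 among these fits (highest FDR 0.0946), and *Elf3* lost its call without E-CAD- replicate 3 (highest FDR 0.0595).

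Keratins form the intermediate filaments of epithelia, and those of simple epithelia were the ones called. *Krt8* was at 532, 520, and 276 CPM in E-CAD+ and at 67.9, 86.2, and 65.2 CPM in E-CAD- cells (log2 fold change 2.73, SE 0.48, edgeR FDR = 0.00051). Its partner *Krt18* was at 58.6, 80.9, and 178 against 14.8, 18.9, and 14.8 CPM, and *Krt19* was at 77.7, 134, and 51.4 against 20.3, 24.7, and 14.5 CPM. These 3 were all that were called among 15 keratins (median log2 fold change 2.73), and without replicate 3 the calls were *Krt8*, *Krt18*, and *Krt17*. *Krt8* and *Krt18* held in each fit with a library left out, and *Krt19* held only without E-CAD+ replicate 3 (highest FDR elsewhere 0.195). OKMS iPSCs had less *Krt8* than E-CAD+ cells, with an average of 22.1 CPM, and MEFs had 6.58 CPM. None of the 9 keratins of stratified epithelia was called by edgeR or by DESeq2, while 5 had an unadjusted p under 0.05. Their median log2 fold change was 3.07, with 7 of the 9 positive, against 2.36 for the 6 keratins of simple epithelia, all positive. With the replicate number as a block, *Krt14*, *Krt16*, and *Krt17* were called as well, which raised the keratin calls from 3 to 6. *Krt17* was at 226, 188, and 6.14 against 28.1, 23.7, and 1.63 CPM, and *Krt6a* was at 31.7, 74.5, and 0.917 against 6.07, 7.55, and 0.326 CPM. *Krt14* was at 9.54, 13.5, and 0 CPM in E-CAD+ cells and at 0 in each E-CAD- library. Replicate 3 of E-CAD+ cells was thus the low library in all 3.

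**Figure D1:**
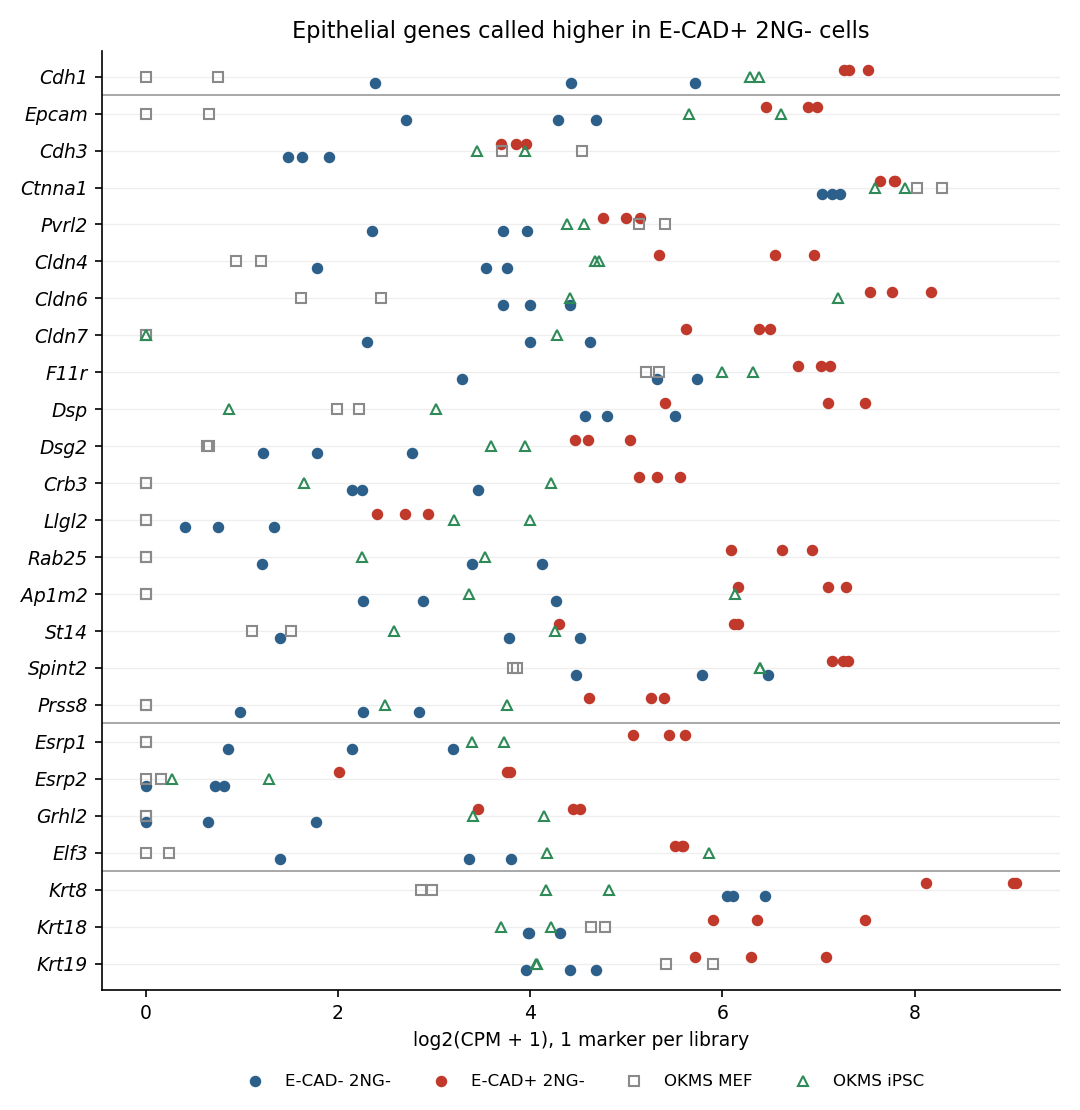
Epithelial genes called higher in E-CAD+ cells, with log2(CPM + 1) on the horizontal axis and 1 marker per library for E-CAD- and E-CAD+ 2NG- cells (3 libraries each), OKMS MEFs, and OKMS iPSCs (2 libraries each). Lines separate *Cdh1*, 17 of the 18 junction genes, 4 regulators, and 3 keratins. In each gene except *Dsp* and *St14* the 3 E-CAD+ markers lie to the right of the 3 E-CAD- markers, and *Krt8* lies further right in E-CAD+ cells than in iPSCs.

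Mesenchymal transcription factors were mostly lower in E-CAD+ cells, with a median log2 fold change of -1.88 over 21 genes tested and 2 calls, both lower. *Zeb1*, a repressor of *Cdh1*, was at 1.19, 0, and 1.76 CPM in E-CAD+ and at 18.8, 7.21, and 18.3 CPM in E-CAD- cells (log2 fold change -3.48, SE 0.65, edgeR FDR = 0.00103). OKMS MEFs averaged 40.4 CPM and iPSCs 1.63 CPM, so that E-CAD- cells lay between the 2 ends and E-CAD+ cells at the level of iPSCs. Its relative *Zeb2* was at 1.36, 0, and 3.17 against 17.3, 14.8, and 29.3 CPM. The *Zeb1* call held without each library in turn and without replicate 3. *Zeb2* lost its call without E-CAD+ replicate 1 or 2, without E-CAD- replicate 1 or 3, and without replicate 3 (edgeR FDR = 0.0666). *Snai1* did not pass, with 0.511, 0, and 1.20 against 4.55, 2.4, and 4.08 CPM (edgeR FDR = 0.134), although the groups did not overlap. Summed over the list, the factors took 36.9 to 46.4 CPM in E-CAD+ and 147 to 185 CPM in E-CAD- cells, against 578 to 973 CPM in MEFs and 13.5 to 14.2 CPM in iPSCs. Without replicate 3, 3 factors were called lower, and with the 6 libraries alone none of 11 factors tested was (edgeR, 4 at an unadjusted p under 0.05).

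Fibroblast and matrix genes followed the same course. Of 43 tested, 8 were called, all lower, the median log2 fold change was -1.56, and 27 were lower without overlap. *Vim*, the intermediate filament gene of mesenchymal cells, was at 47.7, 114, and 92.0 CPM in E-CAD+ and at 544, 426, and 484 CPM in E-CAD- cells (log2 fold change -2.39, SE 0.48, edgeR FDR = 0.00227). MEFs averaged 2854 CPM and iPSCs 85.4 CPM, and the call held without each library and without replicate 3. Fibrillar collagens build most of the fibroblast matrix, and 5 of 9 collagen genes were called. *Col1a1* was at 15.2, 39.7, and 34.2 against 96.2, 150, and 118 CPM, *Col1a2* at 22.2, 51.9, and 65.7 against 217, 203, and 162 CPM, and *Col3a1* at 26.4, 25.5, and 72.9 against 177, 129, and 242 CPM. *Col5a1* and *Col5a2* were at 1.02 to 5.48 and 11.8 to 20.6 CPM in E-CAD+ against 17.3 to 24 and 60.3 to 98.2 CPM in E-CAD- cells. *Lox*, which cross-links collagen, was at 9.71, 6.12, and 7.34 against 51.2, 47.0, and 30.3 CPM, and *Timp1*, an inhibitor of matrix proteases, was at 78.4, 109, and 70.3 against 188, 266, and 267 CPM. Apart from *Vim*, each of the 8 calls was lost with some library left out, *Timp1* only when both replicate 3 libraries were. The count of calls was 2 without E-CAD+ replicate 1, 17 without E-CAD+ replicate 3, 12 without replicate 3, and 17 with the replicate block. Summed over the list, these genes took 967 to 1346 CPM in E-CAD+ and 2939 to 3365 CPM in E-CAD- cells, against 17457 to 21072 CPM in MEFs and 555 to 630 CPM in iPSCs.

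Contractile and actin genes differed less between the populations. None of 27 tested was called by edgeR or DESeq2, 9 had an unadjusted p under 0.05 (3 higher and 6 lower), and their median was -0.27, whereas 25 of the 27 were lower in OKMS iPSCs than in MEFs. With the replicate number as a block, *Acta2* alone was called, as lower. In the TGF-beta pathway, which promotes mesenchymal states, 3 of 22 genes were called and the median was -0.47. The ligand gene *Tgfb3* was at 0.170, 0.322, and 1.48 CPM in E-CAD+ and at 14, 15.4, and 7.34 CPM in E-CAD- cells (log2 fold change -3.72, edgeR FDR = 0.0255). *Tgfbi*, a matrix protein induced by TGF-beta, was at 4.94, 0.967, and 9.17 against 41.5, 20.6, and 24.5 CPM, and *Tgif1*, a corepressor of SMAD proteins, was higher, at 90.3, 110, and 135 against 59.0, 46.7, and 57.6 CPM. Groups did not overlap in any of the 3, but each call was lost in some fits with a library left out. *Tgfb3* (highest FDR 0.136) and *Tgfbi* (0.179) lost it without E-CAD+ replicate 1 or 2 or E-CAD- replicate 1, *Tgfb3* also without E-CAD- replicate 2 and *Tgfbi* without E-CAD- replicate 3. *Tgif1* (0.179) lost it without E-CAD+ replicate 3 or E-CAD- replicate 2 or 3.

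Pluripotency regulators were also higher in E-CAD+ cells. Of 40 tested, 14 were called, all higher, with a median log2 fold change of 1.31. *Esrrb*, an orphan nuclear receptor of the naive network, was at 14.1, 13.9, and 15.0 CPM in E-CAD+ and at 0.190, 1.03, and 0.489 CPM in E-CAD- cells (log2 fold change 4.96, SE 0.59, edgeR FDR = 7.28e-07). It varied little among E-CAD+ libraries and stood at 82.0 CPM on average in iPSCs. *Tfcp2l1*, another factor of this network, was at 26.2, 37.7, and 11.9 against 3.23, 4.81, and 0.326 CPM, and *Nr5a2* was at 3.58, 0.322, and 3.03 against 0, 0, and 0.163 CPM. The *Nr5a2* call was lost in 6 of the 7 fits with fewer libraries (highest edgeR FDR = 0.134), and its level in E-CAD+ replicate 2 was below the counting limit. *Zfp42*, a marker of naive cells, was at 21.1, 21.0, and 75.8 against 13.7, 4.81, and 6.36 CPM, which remained far below the iPSC average of 871 CPM. *Dppa5a*, an RNA-binding protein of pluripotent cells, was at 692, 500, and 2554 against 145, 142, and 80.1 CPM (log2 fold change 3.53, SE 0.46, edgeR FDR = 2.9e-06), with 14763 CPM on average in iPSCs.

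E-CAD+ replicate 3 was the highest library for most of these genes. *Dppa3*, a maternal factor that protects DNA methylation, was at 89.6, 77.4, and 426 against 14, 18.9, and 10.3 CPM, and the de novo methyltransferase gene *Dnmt3b* was at 31.5, 33.5, and 232 against 12.3, 10.6, and 26.7 CPM. *Dppa4* was at 5.45, 2.90, and 25.7 against 3.23, 0, and 0.978 CPM, and *Dnmt3l* at 2.73, 0, and 7.34 against 0.190, 1.37, and 0 CPM, both with overlapping groups. Accordingly, 5 of the 40 genes were called without replicate 3, 7 without E-CAD+ replicate 3 alone, and 24 with no filter on low counts. *Esrrb*, *Tfcp2l1*, *Dppa5a*, and *Fbxo15* (21.1, 20.3, and 25.5 against 4.55, 4.46, and 3.59 CPM) held their calls without each library in turn and without replicate 3. *Utf1* (48.9, 52.9, and 67.6 against 19.2, 17.2, and 3.59 CPM) lost its call without E-CAD- replicate 3 (highest FDR 0.0781), and *Tdgf1* (82.0, 90.9, and 193 against 19.9, 51.2, and 37.0 CPM) without E-CAD+ replicate 3 (highest FDR 0.0852). Summed over the list, these genes took 1889, 1669, and 5032 CPM in E-CAD+ libraries and 817 to 1007 CPM in E-CAD- cells, against 19739 to 21076 CPM in iPSCs. The top E-CAD+ value was thus that of replicate 3, and *Dppa5a* alone made up most of the iPSC sum.

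Reads of the 4 cassette factors can come from the cassette or from the endogenous loci and cannot be told apart here. The sequencing read the 5′ end of transcripts, and Oct4 comes first on the cassette transcript. Cassette reads need not fall on the 4 genes alike, so that these levels do not measure cassette output. The source of the reads was not tested. Only *Pou5f1*, which encodes Oct4, was called, with 174, 144, and 333 CPM in E-CAD+ and 60.7, 97.5, and 46.1 CPM in E-CAD- cells (log2 fold change 1.85, SE 0.35, edgeR FDR = 0.00123), and its call was lost without replicate 3. *Sox2* was at 31.7, 29.0, and 57.6 against 42.9, 23.7, and 52.2 CPM, *Klf4* at 38.0, 55.4, and 14.2 against 35.9, 32.3, and 22.8 CPM, and *Myc* at 59.5, 72.9, and 25.3 against 44.8, 65.9, and 48.3 CPM. The populations overlapped in these 3 genes, and their log2 fold changes were 0.17, 0.32, and 0.10.

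Other lists had few or no calls. By edgeR and by DESeq2 none of 29 WNT pathway genes was called (median 0.03, or -0.28 with genes near the counting limit set to their bounds), nor any of 21 FGF and EGF pathway genes (median 0.47, or 0.35 with bounds), 10 AP-1 factors (median -0.09), and 31 cell cycle genes (median 0.07). At an unadjusted p under 0.05 (edgeR) these lists held 2, 3, 0, and 3 genes. Of 25 integrin and laminin genes 2 were called, both higher. These were *Itga3*, which encodes an epithelial laminin receptor subunit (6.14, 5.80, and 4.66 against 0.949, 0, and 0.163 CPM), and *Lama5*, a laminin chain of epithelial basement membranes (85.4, 50.3, and 54.9 against 32.8, 22.0, and 14.8 CPM), whose call was lost without E-CAD+ replicate 1, without E-CAD- replicate 3, or without replicate 3 (highest FDR 0.0726).

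**Figure D2:**
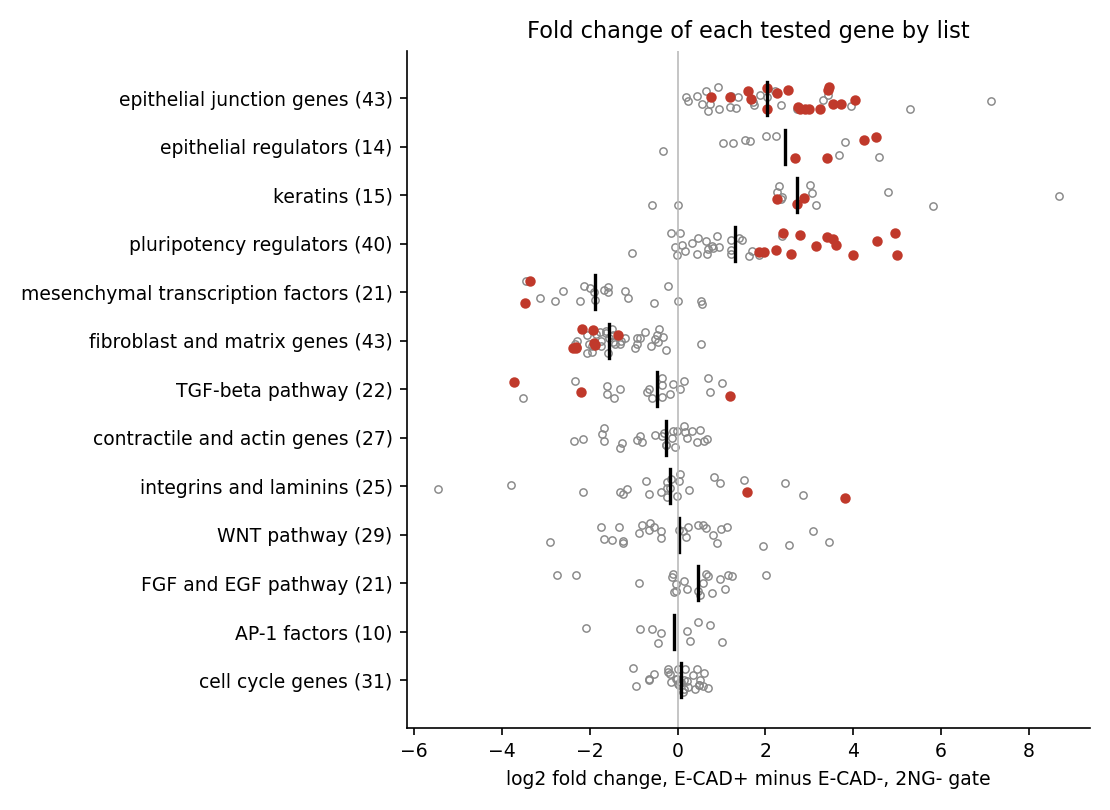
Log2 fold change (E-CAD+ minus E-CAD-, 2NG- gate) of each tested gene in 13 lists, with the number of tested genes in parentheses. Red filled points were called at an edgeR FDR of at most 0.05, grey open points were not, and black bars are medians. All 43 junction genes lie to the right of 0, whereas the fitted medians of the WNT (0.03) and cell cycle (0.07) lists lie near 0.

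The 12 genes with the largest increases in E-CAD+ cells, taken among called genes with no overlap and a mean of at least 10 CPM in the higher population, were *Lnx1*, *Prr15l*, *Tgm1*, *Esrrb*, *Bnipl*, *Apoc1*, *Grhl2*, *AU018091*, *Rab15*, *AU015836*, *Cldn6*, and *Dppa3*. *Lnx1*, a ubiquitin ligase, was at 15.3, 13.5, and 6.77 CPM in E-CAD+ cells and had 1 read in all 3 E-CAD- libraries together, a ratio of 141 with an exact 95% counting interval (Clopper-Pearson) from 25.1 to 5595. *Prr15l* was at 14.8, 17.7, and 7.69 against 0, 0, and 0.326 CPM, a ratio of 77.6 (21.3 to 645). Both genes were thus close to the counting limit in E-CAD- cells. *Tgm1*, the transglutaminase that cross-links the keratinocyte envelope, was at 16.4, 29.0, and 2.61 against 1.14, 0, and 0 CPM. *Apoc1*, an apolipoprotein gene, was at 13.1, 15.8, and 15.4 against 0.379, 2.4, and 0 CPM (log2 fold change 4.53, SE 0.53, edgeR FDR = 5.67e-07). *Bnipl* was at 32.6, 34.2, and 11.4 against 0, 3.78, and 0 CPM, and *Rab15*, a GTPase of endosomes, at 9.37, 12.6, and 9.74 against 0, 0, and 1.79 CPM. Calls of 8 of the 12 held without each library in turn and without replicate 3, and those of *Prr15l*, *Rab15*, *AU015836*, and *Dppa3* did not. *Prr15l* lost its call without E-CAD- replicate 1 (edgeR FDR = 0.0530), *Rab15* without E-CAD+ replicate 2 or E-CAD- replicate 1 or 2 (highest FDR 0.141), and *Dppa3* without replicate 3.

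The 12 genes with the largest decreases by the same rule were *Neurod4*, *Tub*, *Cplx1*, *Gap43*, *Igfbpl1*, *Tubb3*, *Miat*, *Nova2*, *Elavl4*, *Ncam1*, *Tppp3*, and *Insm1*. *Tubb3*, a tubulin of neurons, was at 2.90, 5.16, and 6.14 CPM in E-CAD+ and at 153, 99.6, and 464 CPM in E-CAD- cells (log2 fold change -5.44, SE 0.62, edgeR FDR = 5.26e-07). E-CAD- cells exceeded both ends of the route in this gene, since MEFs averaged 36.8 and iPSCs 28.6 CPM. *Gap43*, a protein of growth cones, was at 1.02, 0, and 1.69 against 86.5, 51.8, and 240 CPM (log2 fold change -6.58, SE 0.95, edgeR FDR = 2.88e-05), close to the MEF average of 111 CPM. *Ncam1*, an adhesion molecule, was at 3.07, 2.90, and 2.54 against 52.4, 56.3, and 122 CPM, and MEFs averaged 99.6 CPM. *Tppp3*, which promotes tubulin polymerization, was at 13.8, 11, and 7.62 against 246, 171, and 423 CPM (log2 fold change -4.56, SE 0.54, edgeR FDR = 5.67e-07). In each of these genes all 3 E-CAD- libraries were far above all 3 E-CAD+ libraries, and replicate 3 was the highest of the E-CAD- libraries.

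The neuronal transcription factor gene *Neurod4* had no read in E-CAD+ cells and was at 6.26, 2.4, and 50.5 CPM in E-CAD- cells. Set against 3 reads over the E-CAD+ libraries, it was at least 189-fold lower there, and at least 37.7-fold lower when E-CAD- replicate 3 was left out. Its call was lost in 5 of the 7 fits with fewer libraries (highest edgeR FDR = 0.292). *Tub* was at 0, 0, and 0.0705 against 6.07, 7.55, and 34.4 CPM, and the synaptic vesicle gene *Cplx1* at 0, 0, and 0.141 against 5.69, 7.55, and 22.2 CPM. With 1 read in E-CAD+ cells, *Tub* had a ratio of 428 (exact 95% counting interval 76.2 to 16984), which was 153 (26.3 to 6142) when E-CAD- replicate 3 was left out, and its call was lost without replicate 3 of both populations (edgeR FDR = 0.0852). *Igfbpl1* was at 0, 0, and 1.48 against 35.3, 16.5, and 83.3 CPM, although it was at 0 in MEFs and averaged 1.46 CPM in iPSCs. *Elavl4*, an RNA-binding protein of neurons, was at 0, 0, and 2.54 against 14, 8.58, and 64.4 CPM, the neuronal splicing factor gene *Nova2* at 0.852, 0, and 0.282 against 7.59, 8.58, and 23.2 CPM, and the noncoding RNA *Miat* at 0.341, 0.322, and 0.776 against 10.6, 15.8, and 25.6 CPM. *Insm1*, a zinc finger factor of neuroendocrine cells, was at 2.05, 1.61, and 0.776 against 26.2, 42.9, and 41.1 CPM. E-CAD- replicate 3 was the highest library in 11 of the 12 genes, all but *Insm1*, and in 61 of the 108 genes called lower (56.5%). Without E-CAD- replicate 3, 5 of the 12 were still called, and without replicate 3 of both populations also 5. *Gap43*, *Tubb3*, *Ncam1*, and *Tppp3* were called in every fit with a library left out. Of the 7 fits with fewer libraries, *Miat* lost its call in all 7, *Insm1* in 6, *Elavl4* in 5, *Cplx1* in 4, *Nova2* in 2, and *Igfbpl1* in 1.

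**Figure D3:**
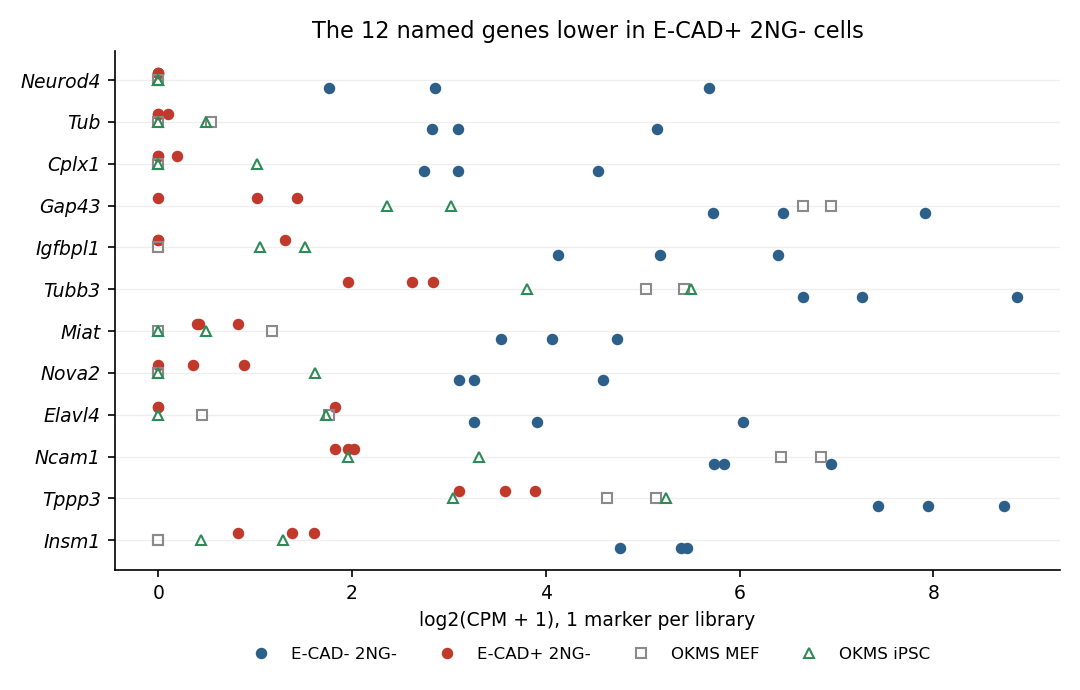
The 12 named genes lower in E-CAD+ cells, with log2(CPM + 1) on the horizontal axis and 1 marker per library for E-CAD- and E-CAD+ 2NG- cells (3 libraries each), OKMS MEFs, and OKMS iPSCs (2 libraries each). E-CAD- markers lie to the right of the E-CAD+ markers in all 12 genes, with replicate 3 furthest right in 11, and *Gap43* and *Ncam1* are also high in MEFs.

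Marker lists of other cell types that the gates could hold, and of embryonic fibroblasts, were examined beside these genes. In the neural list (7 genes tested) no gene had a positive fold change, the median log2 fold change was -4.59, and *Tubb3* and *Pax6* were called (2 genes). Only 5 of the 7 had over 3 reads in either population, and their median with bounds was -5.44. *Pax6* was at 0 in each E-CAD+ library and at 1.14, 2.06, and 21.2 CPM in E-CAD- cells, and its call was lost without E-CAD- replicate 3. The sum of the list was 5.16 to 7.76 CPM in E-CAD+ and 123 to 537 CPM in E-CAD- cells, against 34.2 to 43.1 CPM in MEFs and 39.8 to 54.2 CPM in iPSCs. In E-CAD- cells most of this sum came from *Tubb3*, which is also one of the 12 named lower genes. The part of the list in the other lower genes was not tested. The embryonic fibroblast list (10 genes) held 3 lower calls, all collagens (4 with *Postn* under the replicate block), and summed to 76.4 to 294 CPM in E-CAD+, 592 to 741 CPM in E-CAD-, and 3158 to 4039 CPM in MEF libraries, so that these markers were depleted in both sorted populations. Its part in the fibroblast and matrix result was not tested either. Among epidermis markers (8 genes, 4 with a positive fold change) *Sfn* was called, and *Krt14* in addition with the block. *Sfn* had 161, 135, and 48.7 against 21.4, 21.3, and 2.77 CPM, and the list summed to 49.9 to 182 against 2.77 to 25.4 CPM. Muscle markers (7 genes) had 1 call, *Mylpf*, which was at 86.4, 72.5, and 146 against 16.1, 17.9, and 4.40 CPM. Only 2 of the 7 had a positive fold change, and the median log2 fold change was -0.52. Endothelial markers (5 genes) had 1 call, *Pecam1*, at 2.39, 0, and 2.54 CPM against 0 in all E-CAD- libraries, and summed to 5.64 to 17.9 against 11.6 to 19.2 CPM. Fold changes were positive in 2 of the 5, with a median of -2.29 (-1.14 with genes near the counting limit set to their bounds). None of the 10 primitive endoderm, 8 trophoblast, and 6 blood genes was called by edgeR or DESeq2, and 5, 2, and 1 of them had an unadjusted p under 0.05 (edgeR). Primitive endoderm genes summed to 232 to 327 CPM in E-CAD+ and 390 to 614 CPM in E-CAD- cells. The same sum was 2254 to 2641 CPM in MEFs and 179 to 227 CPM in iPSCs. Of these 10 genes 5 had a positive fold change, and the median log2 fold change was 0.10. Trophoblast genes summed to 61.6 to 89.7 against 19.4 to 42.7 CPM. Blood genes summed to 131 to 301 CPM in E-CAD+ and 135 to 927 CPM in E-CAD- cells, mostly from the macrophage gene *Lyz2* (232, 269, and 122 against 689, 853, and 120 CPM), and the hemoglobin gene *Hbb-b1* was at 0.

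The E-CAD difference was next set against the route as a whole, using OKMS MEFs and iPSCs, in which 2754 genes (17.6%) were called higher and 2442 (15.6%) lower in iPSCs. Of the 264 genes higher in E-CAD+ cells, 189 (71.6%) were higher in iPSCs than in MEFs, 12 were lower, and 63 were neither. Of the 108 genes lower in E-CAD+ cells, 59 (54.6%) were lower in iPSCs, 12 were higher, and 37 were neither. The 12 that went the other way among lower genes included *Igfbpl1*, *Insm1*, *Jam2*, *Mapt*, *Mfng*, *Nova2*, *Pax6*, *Stmn1*, *Stmn2*, and *Stmn3*, and *Tubb3* and *Elavl4* were among the 37. With TNG OKMS ESCs as the end, 174 of the 264 higher genes (65.9%) were higher in ESCs than in MEFs, and 21 were lower. Among the 108 lower genes 56 (51.9%) were lower in ESCs, and 15 were higher. Over all genes tested, 18.3% were called higher and 16.2% lower in ESCs.

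Position along the route was measured for each library by projection of its log2(CPM + 1) values onto the line from the mean of OKMS MEFs (0%) to the mean of OKMS iPSCs (100%) over all 15630 genes. E-CAD+ libraries stood at 70.2%, 68.3%, and 70.4% (69.6% ± 1.14, SD, n = 3), and E-CAD- libraries at 50.9%, 52.9%, and 50.6% (51.5% ± 1.25, SD, n = 3). The groups were 18.2 percentage points apart, with no overlap (exact two-sided permutation test, p = 0.1, the smallest that 3 against 3 libraries allow). With the 372 called genes removed from the axis the distance was 15.5 points, and with ESCs as the end it was 15.4 points. Leaving out each library gave 17.7 to 18.9 points.

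**Figure D4:**
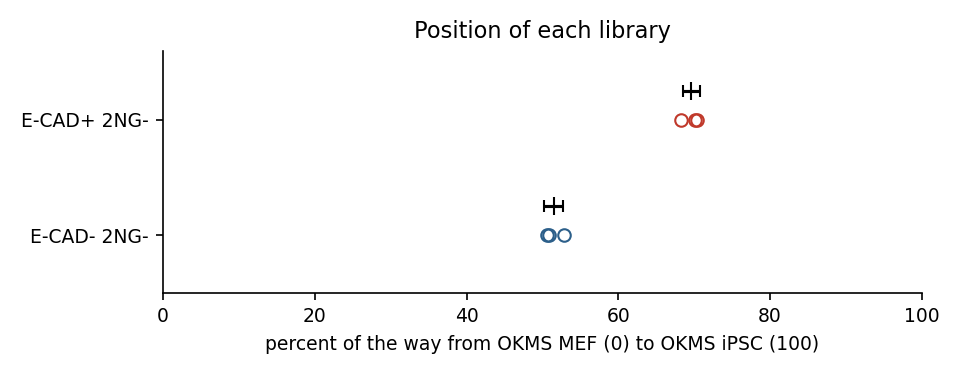
Position of each 2NG- library between OKMS MEFs (0%) and OKMS iPSCs (100%), with 1 circle per library and, above the circles, the mean with a bar of 1 SD to either side (n = 3). E-CAD+ libraries lie between 68.3% and 70.4% and E-CAD- libraries between 50.6% and 52.9%.

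Whether the E-CAD difference depends on the ICAM1 gate was asked with the 3NG- libraries. There 248 genes were called higher (1.59%) and 26 lower (0.166%) in E-CAD+ cells. Of the 264 genes higher in the 2NG- gate, 136 (51.5%) were also called in the 3NG- gate, which is 54.8% of the 248. Of the 108 lower genes 15 (13.9%) were also called, which is 57.7% of the 26. The fold change had the same sign in both gates for 261 of the 264 and 102 of the 108. In the 3NG- gate the genes chosen as called in the 2NG- gate had median log2 fold changes of 1.84 and -1.0, against 2.27 and -2.75 in the 2NG- gate, where they were chosen. In the 3NG- gate 17 of the 43 junction genes and 17 of the 40 pluripotency regulators were called higher. *Igfbpl1*, *Tubb3*, and *Tppp3* were called in the 3NG- gate among the 12 named lower genes, with log2 fold changes of -5.61, -2.15, and -2.66, and the other 9 were not. The neural markers summed to 11.5 to 17.4 CPM in E-CAD+ and 40.1 to 82.2 CPM in E-CAD- cells of this gate.

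The difference between gates was itself called for 2 of the 15630 genes (0.0128%), *Serpini1* and *Dtx1*, while 744 (4.76%) had an unadjusted p under 0.05. No gene was called with the replicate block (758 at an unadjusted p under 0.05), with DESeq2 (676), or without replicate 3 (912). None of the 24 genes named above for the 2NG- gate was called for a difference between gates. The median SE of this difference over all genes tested was 0.813 on the log2 scale, so that a missing call does not show equal fold changes in both gates.

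**Figure D5:**
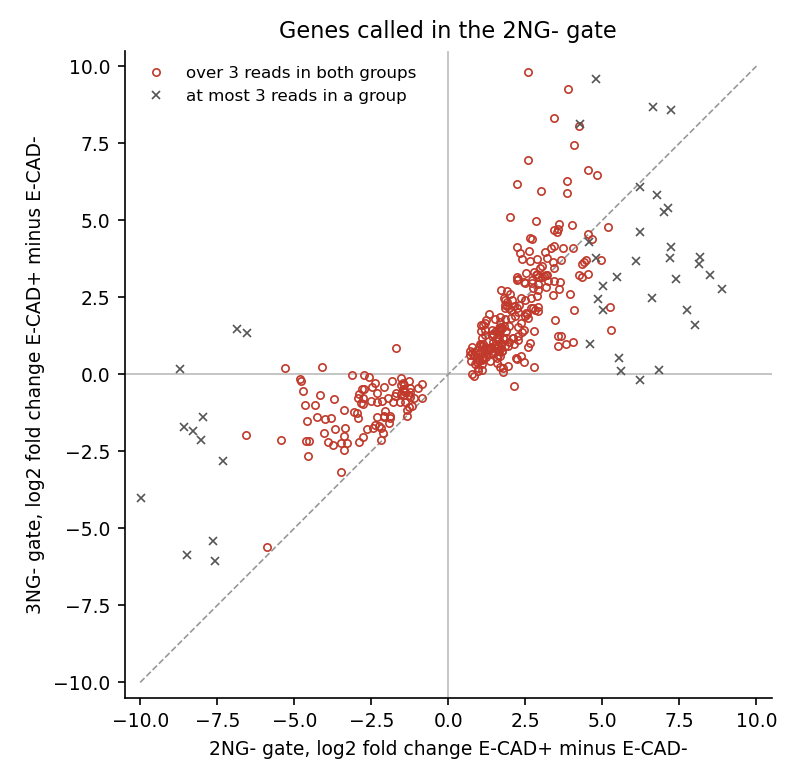
Log2 fold change (E-CAD+ minus E-CAD-) in the 2NG- gate on the horizontal axis and in the 3NG- gate on the vertical axis, for the 372 genes called in the 2NG- gate. Circles are genes with over 3 reads in both 2NG- populations, crosses are genes with at most 3 reads in 1 of them, whose fitted values are no bounds, and the dashed line marks equal values. Most points lie in the upper right and lower left, and among the lower genes most lie above the dashed line.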

How the data were processed

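RNA of the sorted populations, MEFs, iPSCs, and ESCs was sequenced by single-cell tagged reverse transcription (STRT), which reads the 5′ end of a transcript. The authors deposited raw counts of reads per transcript, without normalization, and they gave a read with several positions to the most 5′ exonic one. In these counts 73.9% of the reads had a unique position, so that genes with close copies are uncertain. The labels' processing notes name mm10 and Bowtie 0.12.7, whereas the paper's methods name mm9; 99.4% of the listed positions lie in or within 150 bases of the GRCm38 gene of that name (20607 symbols matched). Repeat and spike-in counts were not used here beyond checks.

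Counts of 24264 transcripts in 48 libraries (1429717 to 14174725 reads each) were normalized by TMM, filtered by condition with edgeR's default, and fitted by quasi-likelihood with each of the 20 conditions as a coefficient (common dispersion 0.217). Calls were made at 0.05 after Benjamini-Hochberg adjustment. SE is the log2 fold change divided by the square root of the F statistic. The interaction contrast used the same fit. Positions used log2(CPM + 1) and an exact permutation test. Named genes were the 12 largest changes in each direction among called genes with no overlap and at least 10 CPM on average in the higher population, the called members of the gene lists, and, for the gates, up to 5 called genes in each direction. The comparison and the lists were chosen with earlier results of these data known. Genes printed beyond this rule were chosen after their values were seen.

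Labels number the replicates. Deviations from the population means correlated by 0.139, 0.146, and 0.360 between E-CAD+ and E-CAD- libraries of the same number (9213 genes), which is above 0.1 in each of the 3 pairs. The numbers were therefore taken to pair the libraries, and a fit with the number as a block was run. Different numbers gave 0.128 (E-CAD+ 1 with E-CAD- 2), 0.0882 (E-CAD+ 2 with E-CAD- 1), and -0.235 to -0.181 where either library was replicate 3. The correlations thus set replicate 3 apart but hardly pair replicates 1 and 2, and no label states a shared culture. Fits with DESeq2, its size factors, no low-count filter, fewer libraries, and each library left out were also run, and the code was tested on simulated data. R 4.3.3, edgeR 4.0.16, DESeq2 1.42.0, Python 3.11.15, pandas 2.3.3, NumPy 2.4.6, SciPy 1.17.1, and Matplotlib 3.10.9 were used. Sequences are from RefSeq. A few of the called genes are not reported here by name.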

Additional observations from a re-analysis of the deposited data

Results flagged for a closer look

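*Serpini1* and *Dtx1* drew attention because their E-CAD difference itself differed between the 2NG- and 3NG- gates. *Serpini1*, a serine protease inhibitor of neurons, was at 4.77, 5.16, and 2.82 CPM in E-CAD+ and at 3.98, 7.90, and 24 CPM in E-CAD- 2NG- cells, whereas in the 3NG- gate it averaged 2.94 CPM in E-CAD+ and 0.0550 CPM in E-CAD- cells. The difference between gates was -6.40 on the log2 scale (edgeR FDR = 0.0473). *Dtx1*, a ubiquitin ligase of the Notch pathway, was at 6.48, 5.16, and 5.08 against 3.98, 7.21, and 3.10 CPM in the 2NG- gate and averaged 9.12 against 0.110 CPM in the 3NG- gate, a difference of -5.41 (edgeR FDR = 0.0473). In both genes the 2NG- populations overlapped, and the E-CAD- 3NG- level was near the counting limit, so that the fitted sizes depend on few reads. Neither call held with the 12 libraries alone, with DESeq2 (FDR = 0.0760 and 0.0913), with the replicate block (FDR = 0.0715 for both), or without replicate 3 (FDR = 0.573 and 0.347).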

How the results depend on the processing

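The 372 genes called in the 2NG- gate became 574 with DESeq2's Wald test (366 of the 372 among them), 843 with no filter on low counts (363), 176 with the 6 libraries alone (129), 513 with these 6 and the replicate block (258), 227 without replicate 3 (154), and, in an alternative chosen after seeing the data, 235 with the 12 libraries of both gates alone (177). Leaving out 1 library gave 186 to 438 calls, the lowest without E-CAD- replicate 3. With the replicate block, which uses the pairing of replicate numbers, 450 genes were called, 368 of them among the 372. The block raised the fibroblast and matrix calls from 8 to 17, the keratin calls from 3 to 6, and the junction and contractile calls by 1 each, and it removed both calls between gates. All 80 named or listed genes kept their calls with it. The count of 2 genes between gates became 0 with the block, with DESeq2, with the 12 libraries alone, and without replicate 3, and 55 with no filter, and single libraries left out (chosen after seeing the data) gave 0 to 3. Causes were not tested. Of the 372 calls, only *Syce3* turned sign, without replicate 3. Of the 80 genes, 34 were called in each fit with a library left out and without replicate 3, and 45 were called without replicate 3. The position difference kept its direction under all alternatives run (15.4 to 18.9 points). Its exact permutation p was 0.2 at the lowest with a library left out and 0.25 with the block (exact sign-flip), so these designs cannot pass 0.05. Genes under about 3 reads per library, 0.212 to 1.03 CPM, cannot be compared.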

Other observations

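Further groups of called genes, chosen after their values were seen, are given here as values. The metallothionein genes *Mt1* and *Mt2*, which bind metals, were higher in E-CAD+ cells, with 1973, 1620, and 2007 against 873, 763, and 526 CPM for *Mt1* (log2 fold change 1.51, SE 0.35, edgeR FDR = 0.00959) and 1856, 1459, and 2292 against 876, 588, and 581 CPM for *Mt2*. *Gpx2*, a glutathione peroxidase of epithelia, was at 149, 97.0, and 93.1 against 13.8, 19.6, and 1.63 CPM, and was called in the 3NG- gate as well (edgeR FDR = 0.0015). *Ptgr1*, a reductase of lipid aldehydes, was at 128, 116, and 69.5 against 34.3, 26.4, and 10.8 CPM (log2 fold change 2.25, SE 0.33, edgeR FDR = 3.44e-05). *Gstk1*, *Gstt2*, and *Gstp2*, which encode glutathione transferases, had log2 fold changes of 2.22, 2.36, and 1.93, and *Gstp2* has close copies that could share reads. *Aldh3a1* was at 134, 247, and 16.9 against 9.49, 27.5, and 0.652 CPM, with overlapping groups. The tetraspanin gene *Cd9* was at 789, 796, and 333 against 212, 244, and 106 CPM.

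A few further genes called higher had most of their reads in E-CAD+ replicate 3. *Sycp3*, of the synaptonemal complex, was at 3.07, 0, and 20.5 against 1.33, 0, and 0 CPM, *Ooep* at 2.05, 0.967, and 21.6 against 0.759, 0, and 0 CPM, and *Trap1a* at 9.03, 0.645, and 35.3 against 1.14, 3.78, and 0 CPM. *Mnd1*, a meiotic recombination gene, was at similar levels in all 3 E-CAD+ libraries (121, 99.6, and 137 against 56.3, 66.3, and 48.8 CPM).

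Beyond the 12 named lower genes, *Mtap1b*, a microtubule protein of neurites, was at 23.3, 29.3, and 15.9 against 114, 129, and 265 CPM (log2 fold change -2.76, SE 0.33, edgeR FDR = 7.28e-07). *Uchl1*, a deubiquitinase abundant in neurons, was at 145, 192, and 52.7 against 495, 410, and 495 CPM. Tubulin genes *Tuba1a* and *Tubb2b* had log2 fold changes of -1.29 and -1.43 and may share reads with their paralogs.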
